A study of Mus musculus with 8 samples.

Results

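Interferon-stimulated genes (ISGs) were compared between regulatory T cells (Treg) of the bone marrow (BM-Treg) and of the spleen (SP-Treg). The set held 44 genes that are known to be induced by type I or type II interferon, chosen by name from the 38215 genes of the tables. All 44 passed the expression filter, which left 13397 genes to be tested. FoxP3+ cells were sorted from naïve B6.FoxP3-GFP mice on a C57BL/6 background aged 12 weeks, in which a green fluorescent protein marks cells that express FoxP3, and no mouse had received a treatment. There were 4 libraries per tissue. BM-Treg replicates 1 to 3 came from females and were labelled batch 1, while the SP-Treg libraries, and with them BM-Treg replicate 4, came from males and were labelled batch 3, so that sex and batch cannot be told apart and both are largely confounded with tissue. The labels do not say how many mice went into a library, and the titles of the SP-Treg libraries hold overlapping ranges of numbers whose meaning is not stated, so that shared animals cannot be told from separate ones.

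Type I interferons signal through the Ifnar1 and Ifnar2 receptor chains and type II interferon through Ifngr1 and Ifngr2. Both use Janus kinases to activate transcription factors of the STAT family, which act together with interferon regulatory factors (IRFs) on the promoters of ISGs. Complexes that hold Stat2 and Irf9 bind the interferon-stimulated response element (ISRE), and STAT dimers bind the gamma-activated sequence (GAS). The products of ISGs sense foreign nucleic acids, block viral replication or attack the vacuoles in which intracellular pathogens live, and resting T cells express many of them at low levels.

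Library totals ranged from 12427136 to 21921252 expected counts on genes. BM-Treg replicates 1 to 3 had at least 17544552 and the libraries of batch 3 at most 14121975, so that depth also followed batch. Levels are given as CPM, counts scaled to a common library size (here by TMM), and fold changes as log2 of BM-Treg over SP-Treg with the standard error (SE) of the fit. A gene was called where its adjusted p in edgeR's quasi-likelihood test was below 0.05. The sorted cells carried their defining transcripts: the summed CPM of 8 Treg markers, Foxp3 among them, was between 7596 and 9030 in BM-Treg and between 8337 and 9124 in SP-Treg, and 0 of the 8 were called by edgeR, with 1, Il2ra, at an unadjusted p below 0.05 and called by DESeq2. In bulk RNA, fewer cells that express a gene and less RNA per cell cannot be told apart.

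BM-Treg expressed less of a group of ISGs, led by the immunity-related GTPases (IRGs) and the guanylate-binding proteins (GBPs). Of the 44 ISGs, 11 were lower and 2, Ifit3 and Ddx58, were higher in BM-Treg, and 31 were not called. Among all genes tested, 5.02% were called lower and 3.72% were called higher, 8.75% in all, while 29.5% of the ISGs were called. The 2 of 44 called higher were near the share of all genes called higher. The log2 fold change was negative for 32 ISGs and positive for 12, with a median of -0.25, against a median of -0.01 over all genes tested. The libraries of the tissues did not overlap for 12 ISGs that were lower in BM-Treg and for 3 that were higher. Over all genes tested, 8.57% did not overlap in the lower direction and 7.58% in the higher one, 16.2% in all. The 3 of 44 ISGs without overlap in the higher direction were likewise near the share of all genes. In batch 3 alone, which has 1 BM-Treg library and so carries no test, 6 ISGs had a positive fold change and the median was -0.44. With batch as a term in the fit, 5 ISGs were called, all of them lower in BM-Treg (Iigp1, Igtp, Gbp3, Parp14 and Trim30a), against 1.93% of all genes called in either direction. Without BM-Treg replicate 1, 6 ISGs were lower, and without BM-Treg replicate 2, 7 were. The number called higher was between 0 and 3 when a library was left out, with 0 without BM-Treg replicate 3, SP-Treg replicate 1 or SP-Treg replicate 2 and 1 without BM-Treg replicate 2, SP-Treg replicate 3 or SP-Treg replicate 4.

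**Figure D1:**
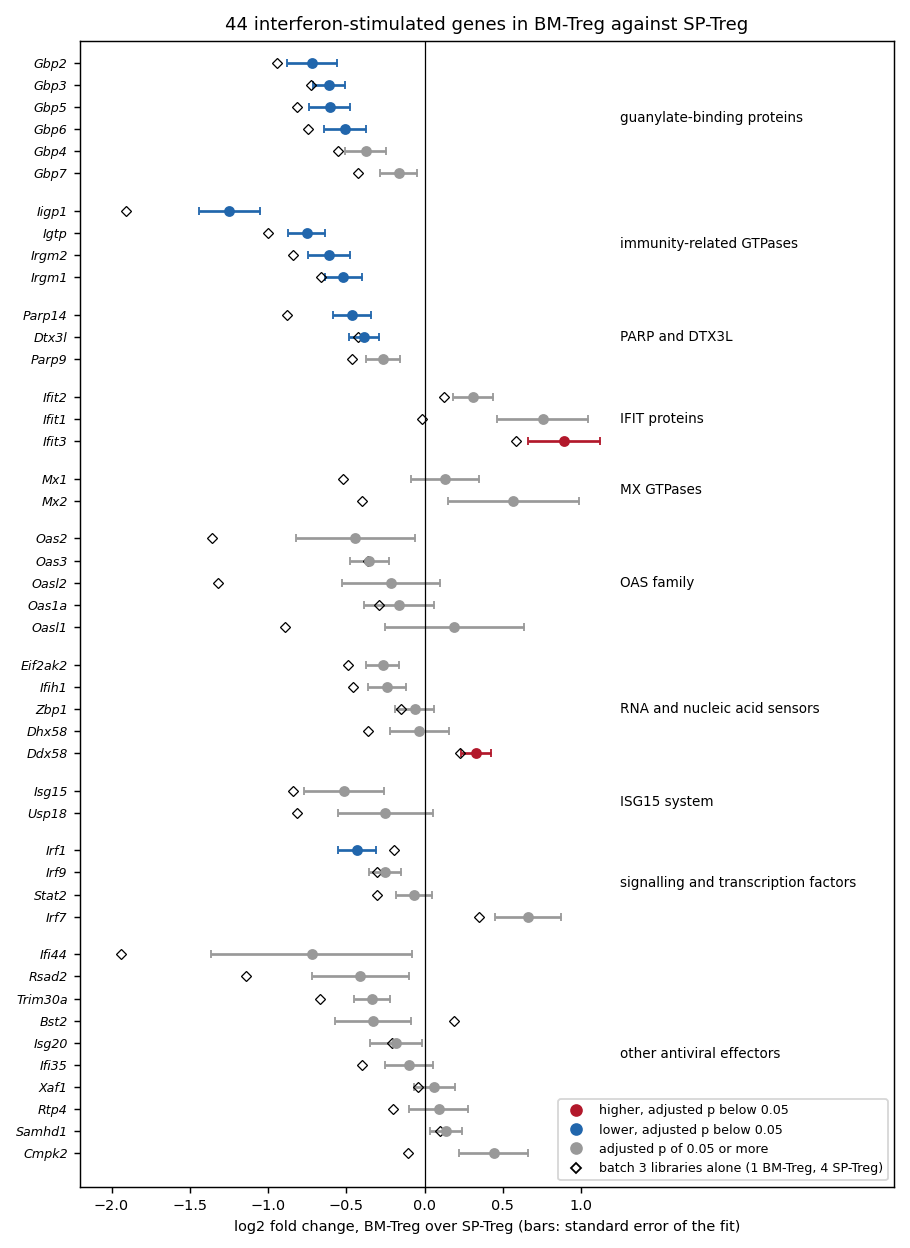
The log2 fold change of BM-Treg over SP-Treg for each of the 44 ISGs, grouped by role, with bars for the SE of the edgeR fit over 4 libraries per tissue; diamonds give the value in batch 3 alone (1 BM-Treg and 4 SP-Treg libraries). All 10 GBPs and IRGs lie below 0, and the 3 IFIT genes lie above 0 in the fit on all libraries.

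The IRGs and GBPs held most of the ISGs called between the tissues, 8 of 13. Both families are GTPases that are strongly induced by type II interferon and that assemble on the vacuoles of intracellular bacteria and protozoa. Of the 10 genes of these families in the set, 8 were called lower in BM-Treg, 0 were higher, and the libraries of 7 did not overlap. Their median log2 fold change was -0.61, and all 10 were negative in the fit on all libraries, in batch 3 alone, where the median was -0.78, and under every other setting tried. The number called lower was between 7 and 9 when a library was left out, except without BM-Treg replicate 1, where it was 5. With batch as a term it was 3, namely Iigp1 (edgeR adjusted p = 0.00259), Igtp (0.0227) and Gbp3 (0.0491). The other 34 ISGs had a median of -0.17 over all libraries, with 3 called lower and 2 called higher. In batch 3 alone their median was -0.36, and 6 of the 34 were positive. Of those 34, 14.7% were called, against 80% of the IRGs and GBPs and 8.75% of all genes tested. Calls also depend on the SE. At a similar log2 fold change, Irgm1 (-0.52, SE 0.12) was called and Isg15 (-0.51, SE 0.25), which had lower counts, was not.

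The 4 IRGs were all called lower in BM-Treg. Summed over the family, BM-Treg libraries had between 481 and 706 CPM and SP-Treg libraries between 968 and 1049 CPM. Iigp1 (chr18:60376029-60392627), an effector that disrupts parasite vacuoles, had the largest decrease of the 13 ISGs called. Its level was 75.2, 85.1, 114 and 51.8 CPM in BM-Treg replicates 1 to 4 and 205, 206, 174 and 190.4 CPM in SP-Treg replicates 1 to 4. Every BM-Treg library was below every SP-Treg library, and BM-Treg replicate 4, of the same batch as the SP-Treg libraries, was the lowest. Iigp1 was 2.37-fold lower in BM-Treg, with a log2 fold change of -1.25 (SE 0.19, edgeR adjusted p = 0.00325).

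Igtp (chr11:58199556-58207591) and Irgm1 (chr11:48861968-48871683) belong to the regulatory IRGs, which keep the effector members from acting on the membranes of the cell itself. Igtp had 263, 289, 346 and 239.9 CPM in BM-Treg and 436, 497, 493 and 491 CPM in SP-Treg. The tissues were well apart, and the SP-Treg libraries lay close together except for replicate 1, the lowest. Igtp was 1.68-fold lower in BM-Treg (log2 fold change -0.75, SE 0.12, edgeR adjusted p = 0.00163). Irgm1 had 44.2, 55.5, 59.3 and 46.8 CPM in BM-Treg and 70.6, 80.6, 74.6 and 69.5 CPM in SP-Treg, again without overlap. Its log2 fold change was -0.52 (SE 0.12, edgeR adjusted p = 0.0133).

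Irgm2, the remaining regulatory IRG of the set, is annotated at chr11:58199618-58222779 and overlaps Igtp over 7974 bases on the same strand. It had 148, 191, 186 and 142 CPM in BM-Treg and 308, 266, 227 and 219 CPM in SP-Treg. BM-Treg was lower in every library, with a log2 fold change of -0.61 (SE 0.13, edgeR adjusted p = 0.0104). Of the stretches of 80 nt (the read length) in the longest transcript of Igtp, 7.67% are also found in Irgm2, so that the division of reads between these genes is partly an estimate.

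**Figure D2:**
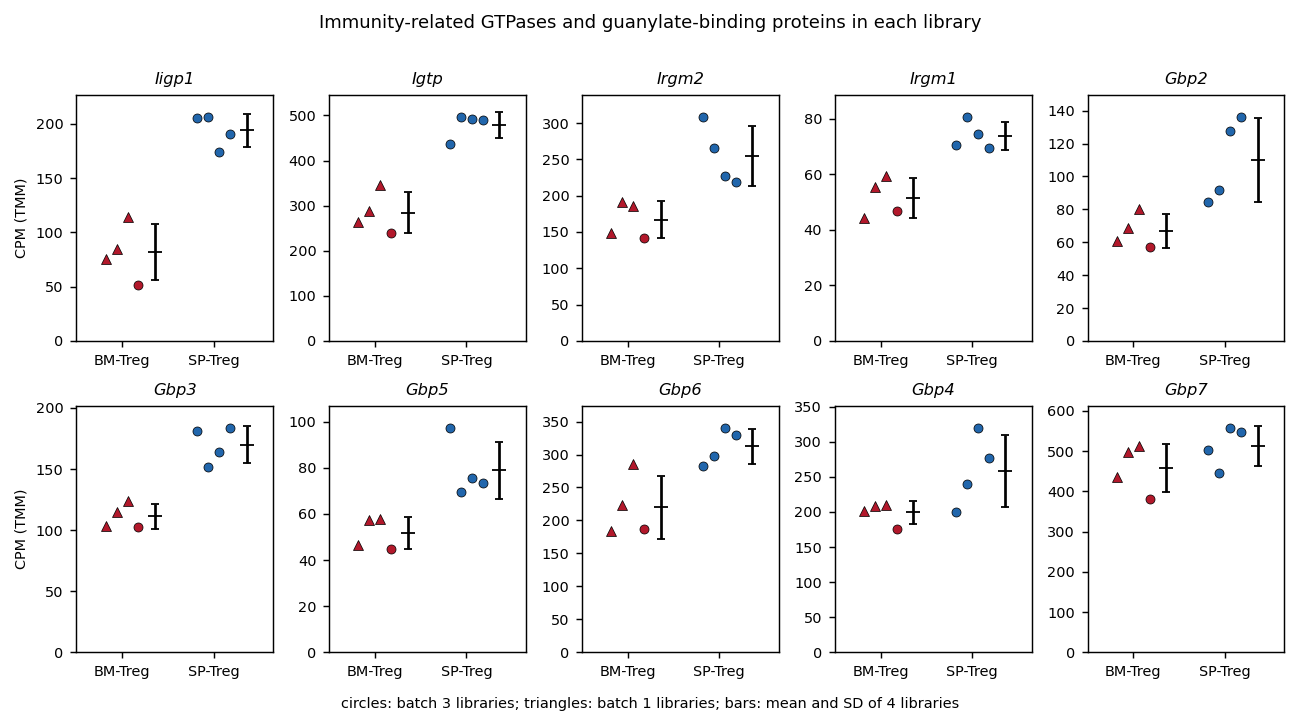
CPM of the 4 IRGs and 6 GBPs in each library, with the mean and SD of 4 libraries per tissue beside the points; circles are batch 3 libraries and triangles batch 1 libraries. For Iigp1, Igtp, Irgm1, Irgm2, Gbp2, Gbp3 and Gbp5 all BM-Treg points lie below all SP-Treg points, and the BM-Treg circle is among the lower BM-Treg points.

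Among the GBPs, 4 of 6 were called lower. Gbp3 (chr3:142560052-142573209) had 104, 115, 124 and 103 CPM in BM-Treg and 181, 151, 164 and 183 CPM in SP-Treg. It had the smallest adjusted p of the GBPs, with a log2 fold change of -0.61 (SE 0.10, edgeR adjusted p = 0.00234). Gbp2 (chr3:142620602-142638008), which is recruited early to pathogen vacuoles, had 60.5, 68.6, 80.3 and 57.3 CPM in BM-Treg and 84.4, 92, 128 and 136 CPM in SP-Treg. The SP-Treg libraries were spread more widely here, but the tissues did not overlap, and the log2 fold change was -0.72 (SE 0.16, edgeR adjusted p = 0.0146). Gbp5 (chr3:142496934-142522344), which promotes inflammasome assembly had 46.7, 57.2, 58 and 44.9 CPM in BM-Treg and 97.1, 69.4, 75.4 and 73.6 CPM in SP-Treg. SP-Treg replicate 1 was the highest, and the tissues did not overlap. Gbp5 had a log2 fold change of -0.61 (SE 0.13, edgeR adjusted p = 0.0102). The identifier of this entry is that of the neighbouring gene Gbp2b in GENCODE M21, so that the values given under Gbp5 may be those of Gbp2b. The first base of the entry is, however, the start that RefSeq gives for Gbp5, inside its promoter stretch (chr3:142496684-142496983). Which gene was counted is not known.

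Gbp6 (chr5:105270704-105293699) had 184, 223, 286 and 187 CPM in BM-Treg and 283, 298, 339.6 and 329.6 CPM in SP-Treg. BM-Treg replicate 3 reached into the range of SP-Treg. The gene was called, with a log2 fold change of -0.51 (SE 0.14, edgeR adjusted p = 0.0306), but of the 8 leave-one-out fits only 2 called it (adjusted p between 0.00611 and 0.116). Gbp4 had a log2 fold change of -0.38 (edgeR adjusted p = 0.0921) and shares nearly its whole span with Gbp8 and Gbp9 on the same strand, and Gbp7, the most highly expressed GBP of the set, had -0.17 (edgeR adjusted p = 0.433). Neither was called.

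The promoters of these genes are shown because all 7 IRGs and GBPs with a promoter in the RefSeq table (build GRCm38.p6) carried the core of an ISRE. The table gives a window of 300 bases per start site, 250 before and 50 after it, and had an entry for 32 of the 44 ISGs. The ISRE was searched as GAAA and GAAAC with 2 bases of any kind between them, and its core as the same letters without the final C, both on either strand. The full motif was found in the windows of 15 of the 32 ISGs (46.9%) and of 0.944% of all 27025 genes of the table. The core, which every full motif contains, was found for 19 ISGs and for 3.99% of all genes. The full GAS motif, TTCCNGGAA, was found for 4 ISGs (12.5%) and for 1.35% of all genes, and its core TTCNNNGAA, which the full motif contains, for 12 ISGs and 9.55% of all genes. A match describes the letters of the window and not the binding of a factor.

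The 250 bases before the start annotated in RefSeq are printed for 5 genes that were lower in BM-Treg and for Ifit3, which was higher, 5′ to 3′ along the strand of the gene. The stretch of Irgm2 lies inside the span given above for that gene, whose first base is not the RefSeq start. Capitals mark the ISRE core and the GAS core on either strand. The stretches are, for Igtp, chr11:58199306-58199555, plus strand; for Irgm2, chr11:58214727-58214976, plus strand; for Irgm1, chr11:48871421-48871670, minus strand; for Gbp2, chr3:142620413-142620662, plus strand; for Gbp3, chr3:142559794-142560043, plus strand; and for Ifit3, chr19:34583279-34583528, plus strand.
Igtp: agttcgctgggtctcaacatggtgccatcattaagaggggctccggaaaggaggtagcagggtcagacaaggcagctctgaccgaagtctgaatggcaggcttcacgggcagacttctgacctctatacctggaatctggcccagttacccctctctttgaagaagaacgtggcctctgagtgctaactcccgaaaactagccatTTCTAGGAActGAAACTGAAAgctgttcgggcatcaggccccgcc
Irgm2: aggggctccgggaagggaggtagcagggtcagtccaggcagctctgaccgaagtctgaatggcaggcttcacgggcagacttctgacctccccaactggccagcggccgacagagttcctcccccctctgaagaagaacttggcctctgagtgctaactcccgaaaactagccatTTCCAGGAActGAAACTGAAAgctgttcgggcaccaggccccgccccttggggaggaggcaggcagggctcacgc
Irgm1: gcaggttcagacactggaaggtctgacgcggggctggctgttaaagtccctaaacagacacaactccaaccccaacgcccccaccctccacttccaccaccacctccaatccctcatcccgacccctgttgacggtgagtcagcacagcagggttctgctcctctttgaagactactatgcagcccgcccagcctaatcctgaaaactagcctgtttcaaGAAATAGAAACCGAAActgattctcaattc
Gbp2: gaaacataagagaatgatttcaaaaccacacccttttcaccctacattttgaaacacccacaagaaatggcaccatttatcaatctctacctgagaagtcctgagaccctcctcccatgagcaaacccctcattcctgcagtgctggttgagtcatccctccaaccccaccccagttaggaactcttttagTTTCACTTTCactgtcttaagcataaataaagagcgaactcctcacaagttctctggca
Gbp3: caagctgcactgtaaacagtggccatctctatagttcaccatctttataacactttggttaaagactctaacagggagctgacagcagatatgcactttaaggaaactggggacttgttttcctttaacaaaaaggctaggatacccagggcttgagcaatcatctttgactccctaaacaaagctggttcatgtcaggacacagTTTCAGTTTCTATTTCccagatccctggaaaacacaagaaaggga
Ifit3: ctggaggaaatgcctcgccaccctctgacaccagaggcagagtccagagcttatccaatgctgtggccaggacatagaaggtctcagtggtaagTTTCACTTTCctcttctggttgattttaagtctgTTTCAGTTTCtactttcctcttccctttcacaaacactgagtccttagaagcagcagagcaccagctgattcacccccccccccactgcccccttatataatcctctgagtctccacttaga

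Igtp and Irgm2 carried the same arrangement, in which the first base of the ISRE core lies 11 bases after the first base of the GAS core. The ISRE core begins 34 bases before the start in Igtp and 64 bases before it in Irgm2, and with the GAS cores aligned, 68.1% of 270 bases of the 2 windows were identical. In Irgm1 and in Gbp3, 2 ISRE cores overlap each other, beginning at 30 and 24 bases and at 45 and 39 bases before the start. Gbp2 had 1, at 59 bases. Ifit3 had 2 that stood apart, at 156 and 122 bases before the start. Ddx58, the other gene called higher, had its only ISRE core 2 bases after the start. Both directions of change thus included genes with an ISRE, as the sequences above show. Of the 19 ISGs with an ISRE core, 15 had a match that began within 200 bases before the start, 7 ISGs had both cores, and in 1 of these, Bst2, the cores overlapped.

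**Figure D3:**
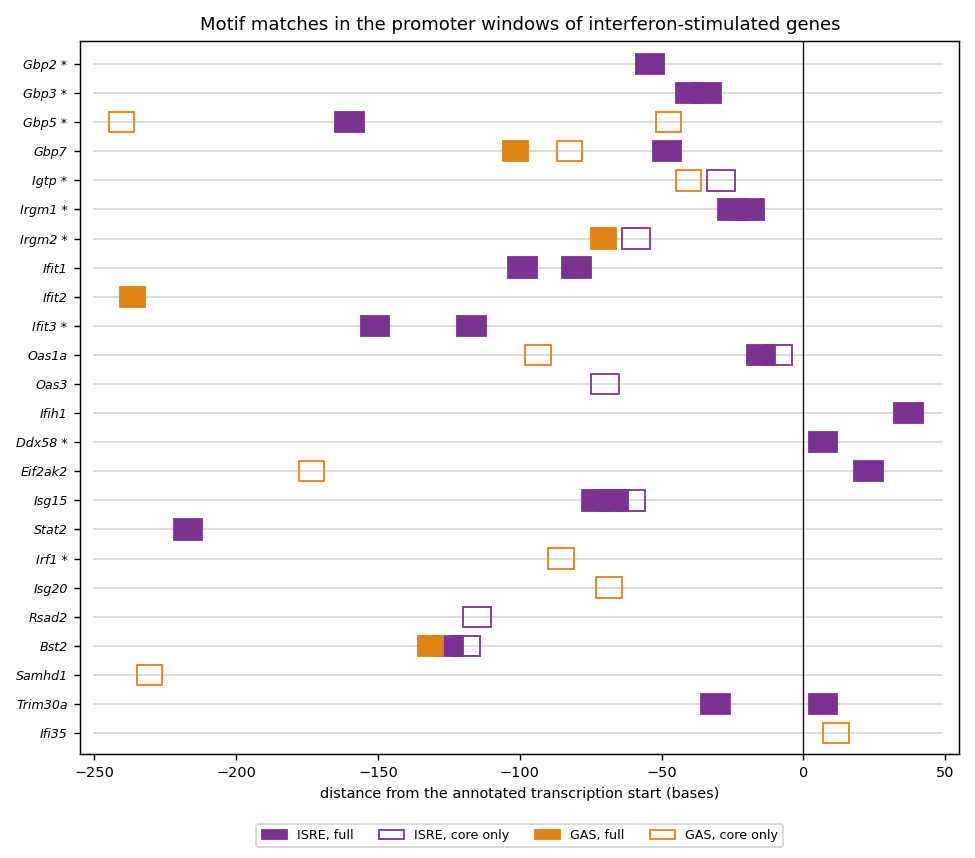
Matches to the ISRE and the GAS in the promoter windows of the 24 ISGs that had any, as distances from the annotated start in bases; filled boxes are full motifs, open boxes the core only, asterisks mark genes called between the tissues, and the windows of genes with several starts are drawn on 1 line. ISRE boxes are present in all 7 GBP and IRG windows, most of them close to the start.

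The IFIT proteins, which bind foreign RNA and block its translation, had positive fold changes in all 3 members, and 1 was called. Ifit3 (chr19:34583531-34588731), a partner of Ifit1 and of the antiviral signalling adaptor of mitochondria, had 7.84, 7.1, 12 and 6.86 CPM in BM-Treg and 3.81, 4.55, 5.28 and 4.63 CPM in SP-Treg. The tissues did not overlap at these low levels, and BM-Treg replicate 3 was the highest. The log2 fold change of Ifit3 was 0.89 (SE 0.23, edgeR adjusted p = 0.0271), and 4 of the 8 leave-one-out fits called it. In its longest transcript, 39.1% of the stretches of 80 nt are shared with Ifit3b, so that its count is uncertain.

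Ifit1 had 25.2, 23.4, 41.8 and 15.6 CPM in BM-Treg and 11.1, 15.3, 21.7 and 15.1 CPM in SP-Treg, and the tissues overlapped. Its log2 fold change of 0.76 was not called (SE 0.29, edgeR adjusted p = 0.147) and was -0.02 in batch 3 alone. Ifit2 had a log2 fold change of 0.31 (SE 0.13, edgeR adjusted p = 0.159), and in batch 3 alone the values of Ifit2 and Ifit3 were 0.12 and 0.59. In batch 3 alone the family was thus nearer to SP-Treg than over all libraries.

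Ddx58 (chr4:40203773-40239828), which encodes the cytosolic RNA sensor RIG-I, had 92.3, 100.2, 105 and 90.6 CPM in BM-Treg and 79.1, 76.2, 78.1 and 75.8 CPM in SP-Treg. The difference was small and the tissues did not overlap, with a log2 fold change of 0.33 (SE 0.09, edgeR adjusted p = 0.0430). Ddx58 was called in 2 of the 8 leave-one-out fits (adjusted p between 0.0435 and 0.127). The other 4 sensors were not called. Ifih1, which senses long RNA, had a log2 fold change of -0.24, the regulatory sensor Dhx58 -0.03, the Z-nucleic acid sensor Zbp1 -0.06 and the RNA-activated kinase Eif2ak2 -0.27.

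The 3 genes of the PARP and DTX3L list lie next to each other on chromosome 16 and were lower in every BM-Treg library than in any SP-Treg library, and 2 of them were called. Parp14 (chr16:35832874-35871544), an ADP-ribosyltransferase, had 313, 295, 288 and 207 CPM in BM-Treg and 411, 362, 371 and 379 CPM in SP-Treg. BM-Treg replicate 4 stood below the other 3 libraries of its tissue. Parp14 had a log2 fold change of -0.46 (SE 0.12, edgeR adjusted p = 0.0286), and -0.88 in batch 3 alone. Dtx3l (chr16:35926511-35939151), a ubiquitin ligase that works as a complex with Parp9, had 196, 175, 211 and 187 CPM in BM-Treg and 271, 244, 237 and 251 CPM in SP-Treg. Its libraries were close within each tissue, and its log2 fold change was -0.39 (SE 0.10, edgeR adjusted p = 0.0222). Parp14 and Dtx3l were each called in 4 of the 8 leave-one-out fits, and with a batch term Parp14 was called (edgeR adjusted p = 0.0196) and Dtx3l was not (0.179). Parp9 had -0.26 (SE 0.11, edgeR adjusted p = 0.149). Dtx3l and Parp9 start head to head on opposite strands and overlap over 682 bases. The amplification of the RNA did not mark strand, so that reads of the overlap cannot be assigned with certainty.

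Among the transcription factors of the set, Irf1 (chr11:53770014-53778374), which is induced by type II interferon and drives many GBPs, had 82.6, 102, 111 and 123 CPM in BM-Treg and 144, 129, 134 and 158 CPM in SP-Treg. The tissues did not overlap, but the highest BM-Treg library, replicate 4, came close to the lowest SP-Treg library. The log2 fold change of Irf1 was -0.43 (SE 0.12, edgeR adjusted p = 0.0394). In batch 3 alone it was -0.20, and only 1 of the 8 leave-one-out fits called it. Irf7, which amplifies type I interferon production, had 15, 17.6, 24.6 and 14.5 CPM in BM-Treg and 8.2, 9.98, 13.1 and 14.1 CPM in SP-Treg. BM-Treg was higher throughout, by a narrow margin at the edge, and the gene was not called in the main test (log2 fold change 0.66, SE 0.21, edgeR adjusted p = 0.0648), while DESeq2 gave an adjusted p of 0.0309. Stat2 had -0.07 and Irf9 -0.25, and neither was called.

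**Figure D4:**
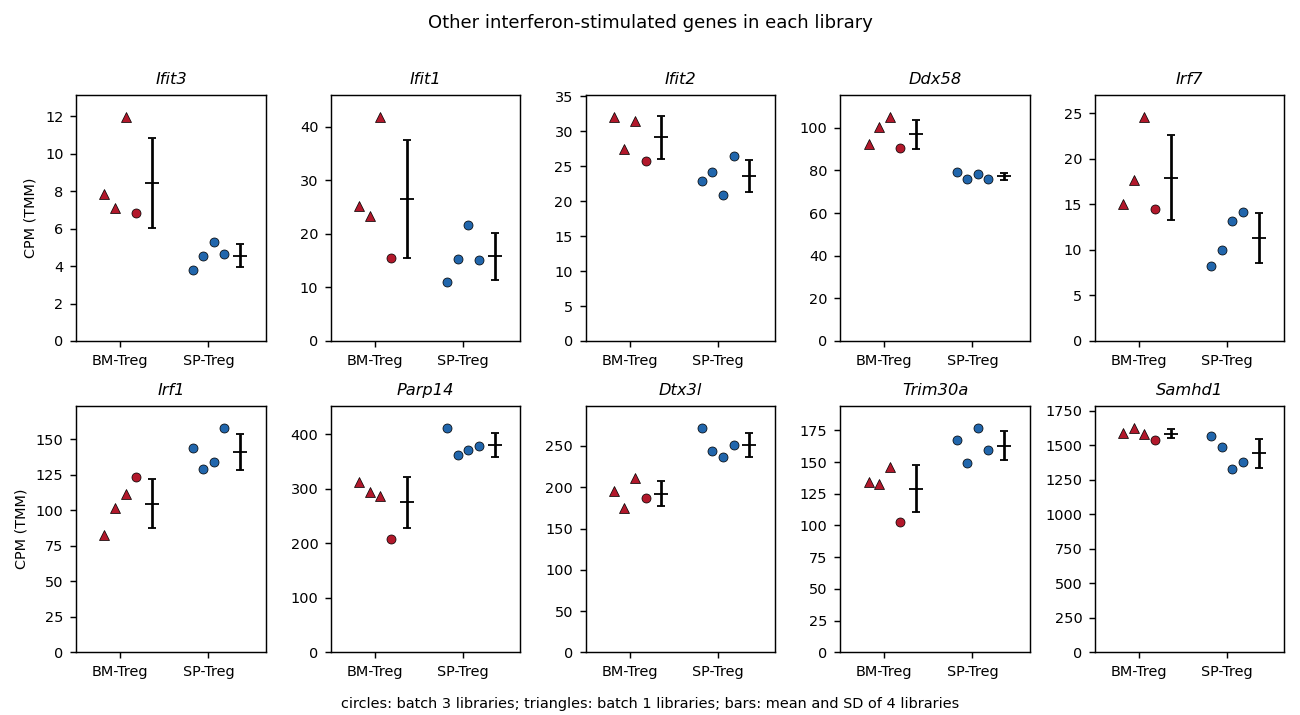
CPM of 10 ISGs outside the GBPs and IRGs in each library, with the mean and SD of 4 libraries per tissue; circles are batch 3 libraries and triangles batch 1 libraries. Ifit3, Ddx58 and Irf7 are higher in all BM-Treg libraries, Irf1, Parp14, Dtx3l and Trim30a are lower in all of them, and Ifit1, Ifit2 and Samhd1 overlap.

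The OAS family, which makes a messenger that activates RNA decay, the MX GTPases, the ISG15 system and the other antiviral effectors held 19 ISGs. Of these 19, 0 were called by edgeR, against 8.75% of all genes tested, with 2 at an unadjusted p below 0.05. DESeq2 called 0 of them as well. The OAS genes ranged from -0.44 (Oas2) to 0.19 (Oasl1) on the log2 scale over all libraries. In batch 3 alone, with 1 BM-Treg library, all 5 were negative, from -1.36 (Oas2) to -0.29 (Oas1a). Oas3 had -0.35 (SE 0.13, edgeR adjusted p = 0.0969) and was called lower without SP-Treg replicate 2. Mx1 and Mx2, which trap viral nucleocapsids, had 0.13 and 0.57 over all libraries and -0.52 and -0.40 in batch 3 alone. The ubiquitin-like modifier Isg15 had -0.51 (SE 0.25, edgeR adjusted p = 0.241), and Usp18, which removes it from proteins, had -0.25. In batch 3 alone Isg15 had -0.84 and Usp18 -0.82. The medians there were -0.89 for the OAS genes and -0.83 for the ISG15 system. Those of the GBPs and IRGs were -0.73 and -0.92.

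Trim30a, which restrains signalling by Toll-like receptors, had 134, 132, 146 and 103 CPM in BM-Treg and 167, 149, 177 and 159 CPM in SP-Treg. The tissues did not overlap, but the log2 fold change of -0.34 was not called (SE 0.11, edgeR adjusted p = 0.0809). The other 9 effectors overlapped between the tissues, with log2 fold changes from -0.72 (Ifi44, at most 2.23 CPM in any library) to 0.44 (Cmpk2). Samhd1, an enzyme that depletes deoxynucleotides, had 1591, 1621, 1579 and 1538 CPM in BM-Treg and 1568, 1483, 1330.2 and 1376 CPM in SP-Treg. It was near the same level in both tissues, with a log2 fold change of 0.14 (SE 0.10, edgeR adjusted p = 0.454).

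Between genes, levels can be compared only per length. On the FPKM scale, which divides by transcript length, Samhd1 was the most abundant of the 44 ISGs, with BM-Treg at 646 ± 49.4 FPKM (SD, n = 4) against 569 ± 63.5 FPKM (SD, n = 4) for SP-Treg. Igtp followed, with BM-Treg at 155 ± 28.6 FPKM (SD, n = 4) against 247 ± 3.13 FPKM (SD, n = 4), and then Trim30a, with 98.1 ± 21.6 FPKM (SD, n = 4) against 128 ± 15.6 FPKM (SD, n = 4). In SP-Treg, Igtp lay above Trim30a by more than the spread of either, while Trim30a and the exonuclease gene Isg20 (111 ± 22.9 FPKM, SD, n = 4) did not differ beyond their spread. The mean over all 8 libraries was over 100 FPKM for 4 ISGs, over 10 FPKM for 29 and under 2 FPKM for 5, Ifi44 being the lowest at 0.58 FPKM.

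Many ISGs had their highest or lowest BM-Treg value in the same library. BM-Treg replicate 3 had the highest BM-Treg value for 30 of the 44 ISGs (68.2%), and replicate 4 the lowest for 33 (75%). Over all genes tested, replicate 3 was the highest BM-Treg library for 23.6% and replicate 4 the lowest for 30.2%. Among the BM-Treg libraries only replicate 4 was male and of batch 3, and its total count was the lowest. For replicate 4, variation between libraries cannot be told apart from sex, batch or depth. In SP-Treg, replicate 1 was the lowest for 20 ISGs (45.5%, against 28.1% of all genes) and replicate 3 the highest for 16 (36.4%, against 24.4%). Summed over the 3 IFIT genes, BM-Treg libraries had 65.1, 58, 85.2 and 48.1 CPM and SP-Treg libraries 37.8, 44.1, 47.8 and 46.1 CPM. Summed over the 6 GBPs they had 1033, 1170.1, 1272 and 949.9 CPM in BM-Treg and 1348, 1296, 1582 and 1547 CPM in SP-Treg. BM-Treg replicate 4 was thus the lowest BM-Treg library for both groups, which placed it nearest to SP-Treg for the IFIT genes and farthest from it for the GBPs.

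Of the receptor chains, Ifngr1 was higher in BM-Treg, with 334, 317, 359 and 285 CPM against 230.5, 154, 164 and 175 CPM in SP-Treg (log2 fold change 0.84, SE 0.13, edgeR adjusted p = 0.00142). Ifngr2 had -0.02, Ifnar1 0.33 (edgeR adjusted p = 0.0800, no overlap) and Ifnar2 0.10, and Ifnlr1 was too low to be tested. Among 7 kinases and factors downstream, 1 was called lower and 1 higher, against 5.02% and 3.72% of all genes tested. Irf2, a repressor that competes with Irf1, was lower (-0.43, edgeR adjusted p = 0.0254), and Irf3, which starts type I interferon production, was higher (0.46, edgeR adjusted p = 0.0258). With a batch term, Ifngr1 (edgeR adjusted p = 0.0911), Irf2 (0.128) and Irf3 (0.348) were not called, and leaving out single libraries kept the call of Ifngr1 in all 8 fits, of Irf2 in 3 and of Irf3 in 5. Irf5 had 0.46 and Irf8 -0.23, and Jak1, Jak2 and Tyk2 had between 0.05 and 0.15, all without a call.

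**Figure D5:**
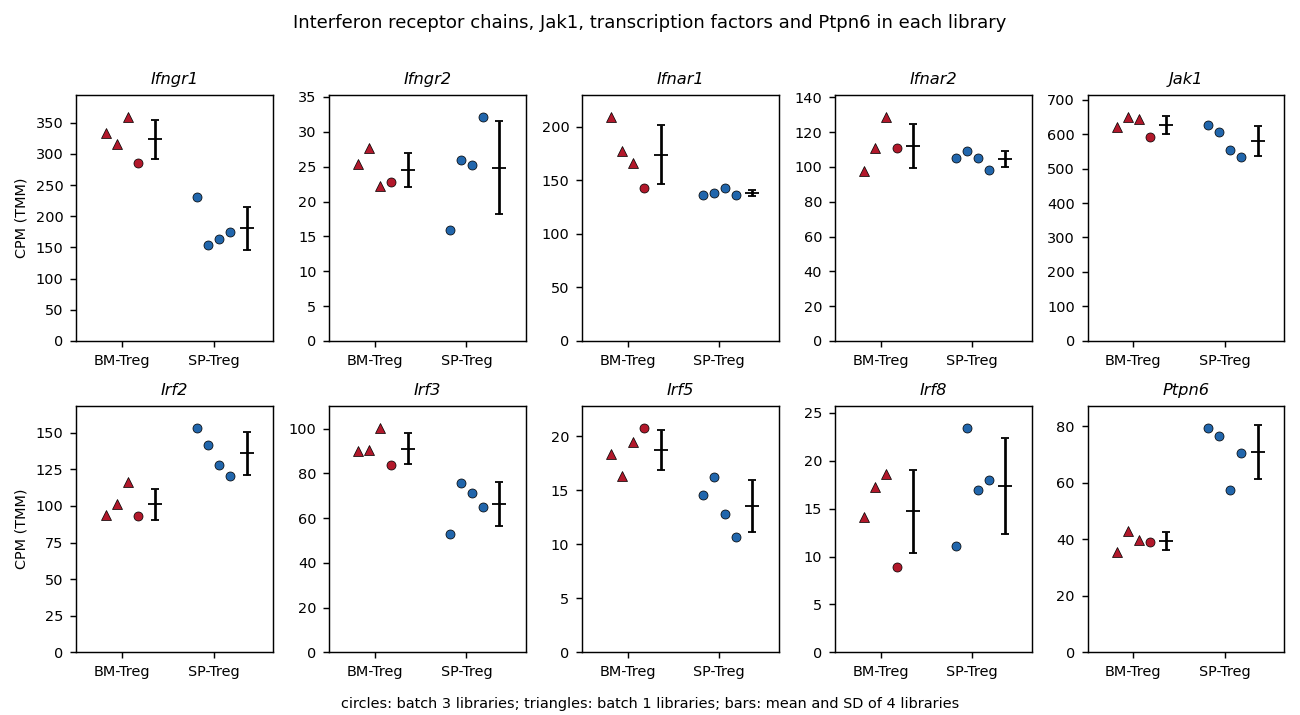
CPM of the 4 interferon receptor chains tested, of the kinase gene Jak1 and 4 IRF genes, and of the phosphatase gene Ptpn6 in each library, with the mean and SD of 4 libraries per tissue; circles are batch 3 libraries and triangles batch 1 libraries. Ifngr1 and Irf3 are higher and Irf2 and Ptpn6 lower in all BM-Treg libraries.

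Of 6 negative regulators of the pathway, only Ptpn6, a phosphatase that dampens cytokine receptor signalling, was called, and it was lower in BM-Treg (log2 fold change -0.85, SE 0.12, edgeR adjusted p = 0.00105, but 0.0524 with a batch term). Socs1 and Socs3, feedback inhibitors that are themselves induced, had -0.22 and -0.28. The genes of type I interferons that were looked up, Ifnb1, Ifna2, Ifna4 and Ifna5, had 0 counts in all 8 libraries. Ifng was detected at low levels, with 2.36, 3.99, 6.97 and 3.85 CPM in BM-Treg and 2.01, 1.12, 5.02 and 2.65 CPM in SP-Treg, and did not pass the test (edgeR adjusted p = 0.374).

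A list of 51 further ISGs, of which 48 were tested, held 5 that were lower in BM-Treg and 1 that was higher, with a median log2 fold change of -0.11. The share called, 12.5%, was near the 8.75% of all genes tested. The list held 3 more IRGs, of which 2 were called lower, and 3 more GBPs, of which 2 were. Tgtp2 had a log2 fold change of -0.83 (edgeR adjusted p = 0.000959), Tgtp1 -0.94 (edgeR adjusted p = 0.00627), Gbp10 -0.84 (edgeR adjusted p = 0.0286), Gbp8 -0.43 (edgeR adjusted p = 0.0170) and Trim21, a cytosolic antibody receptor, -0.38 (edgeR adjusted p = 0.0448). The IRG Ifi47 (-0.46, edgeR adjusted p = 0.128) and Gbp9 (-0.06, edgeR adjusted p = 0.777) were not called. Trim21 kept its call in 2 of the 8 leave-one-out fits and lost it with DESeq2's size factors, with both other filters and with the replicate block. Gbp10 was called in 4 of those 8 fits and Gbp8 in 6. With a batch term, Tgtp1 and Gbp10 were still called, and Tgtp2, Gbp8, Trim21 and Samd9l were not. Tgtp1 and Tgtp2 are near-identical copies, and Gbp8 overlaps Gbp4, so that reads could be divided between them. Samd9l, which restrains cell growth and viral translation, was higher, with 214, 185, 195 and 175 CPM in BM-Treg and 99.9, 131, 141 and 121 CPM in SP-Treg (log2 fold change 0.64, SE 0.12, edgeR adjusted p = 0.00340).

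The division of each gene among its transcripts was compared next, since the tables also give each transcript. For 36 ISGs with a mean of at least 100 counts in each tissue, 3 of 137 transcripts had shares of the expected counts of their gene that did not overlap, against 3.26% of all transcripts of genes at that level. They were ENSMUST00000132930 of Dhx58, with 18.6 ± 8.8% (SD, n = 4) for BM-Treg against 7.95 ± 2.09% (SD, n = 4) for SP-Treg, ENSMUST00000123932 of Samhd1, with 5.25 ± 0.817% (SD, n = 4) against 7.69 ± 0.292% (SD, n = 4), and ENSMUST00000097271 of Irgm1, with 5.0 ± 0.858% (SD, n = 4) against 2.85 ± 1.04% (SD, n = 4). The 3 of 137 transcripts were near the share of all transcripts without overlap. On the FPKM scale, 6 genes had such a transcript, and shares of overlapping transcripts are estimates.

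Transcripts of other cell types were low beside those of Treg but varied among the SP-Treg libraries. The summed CPM of plasmacytoid dendritic cell (pDC) markers was between 50.8 and 61.5 in BM-Treg and between 37.8 and 71.7 in SP-Treg, with Siglech at 0.561 and 0.219 CPM on average. Most of this sum came from Ccr9 (34.9 CPM on average in BM-Treg and 26.2 in SP-Treg) and Pacsin1 (20.2 and 29.5). Of the 8 pDC markers, 4 were below 1 CPM in every library. Neutrophil markers summed to between 1.32 and 10.6 CPM in BM-Treg and between 0.216 and 19.2 in SP-Treg, and monocyte and macrophage markers to between 11.6 and 15.5 and between 4.17 and 22.5. Erythroid markers summed to between 14.6 and 33.8 CPM in BM-Treg and between 1.87 and 479.7 in SP-Treg, B cell markers to between 11.4 and 14.7 and between 7.77 and 107, plasma cell markers to between 0 and 0.395 and between 0.575 and 25.2, and NK and CD8 T cell markers to between 10.9 and 12.9 and between 14 and 45.4. Of the tested genes of these lists, 0 were called higher and 3 were called lower in BM-Treg, the direction of most of the ISGs called. They were Cd8a of cytotoxic T cells, 1 of 2 tested in its list (log2 fold change -2.99, SE 0.69, edgeR adjusted p = 0.0293), the B cell factor Ebf1, 1 of 5 (-2.42, SE 0.62, edgeR adjusted p = 0.0332), and Pacsin1 of the pDC list, 1 of 4 (-0.55, SE 0.16, edgeR adjusted p = 0.0415). SP-Treg replicate 1 had the lowest sum of every one of these lists among the SP-Treg libraries, and among the 10 IRGs and GBPs it was the lowest SP-Treg library for Igtp, Gbp2, Gbp4 and Gbp6 and the highest for Irgm2 and Gbp5. The part of these transcripts in the differences was not tested.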

How the data were processed

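FoxP3+ cells were sorted by flow cytometry, and their RNA was amplified by the single primer isothermal method (which does not mark strand) before single-end sequencing with a read length of 80 nt. The submitters' processing notes name cutadapt 1.9, STAR 2.5.2a, RSEM 1.2.30 and GRCm38, without roles. The authors deposited expected counts per gene and per transcript, which are not normalized between libraries, and FPKM values, which are divided by transcript length and depth. The annotation release, filters and strand setting are not given in the sources used here.

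Expected counts were rounded, filtered with edgeR's default filter on the tissues (13397 of 38215 genes), scaled by TMM and tested across all genes with edgeR's quasi-likelihood test (edgeR 4.0.16, R 4.3.3) without covariates. P-values were adjusted by Benjamini-Hochberg, and calls were made below 0.05. The test was tried on simulated data. Alternatives used limma 3.58.1 and DESeq2 1.42.0, other filters, FPKM, a batch term, a replicate block and each library left out. Since the labels do not tie replicates to separate animals, p-values measure the spread between libraries, and no 2 libraries of a tissue were duplicates. Reads are amplified without molecular identifiers. The ISGs, gene lists and the genes named were chosen with earlier results of these data known: the 44 members by name, per-library values for those called, for the 3 most abundant per length and for the 2 uncalled with the largest change and no overlap, receptor chains, kinases and factors, and called genes of the other lists. Ifit1 and Ifit2 were given per library or by value beside Ifit3 after their values were seen. Motifs were matched as letters in promoter windows of RefSeq (GRCm38.p6). Of the 44 identifiers, 44 are in GENCODE M21 (GRCm38), 43 at overlapping positions; that of Gbp5 belongs there to Gbp2b, and Gbp5 is named and placed here as in the deposited tables. Of the downstream factors, 1 gene is not reported here.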

Additional observations from a re-analysis of the deposited data

Results flagged for a closer look

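Of 88 groups of 4 libraries (44 ISGs in each tissue), 2 held a library that stood apart from the other 3 by Dixon's test, which chance alone flags in about 1 of 20 groups. Rtp4, a chaperone that also acts against viruses, had 33.7 CPM in BM-Treg replicate 3 and between 19.2 and 21.4 CPM in the other BM-Treg libraries, a gap of 0.847 of the range. Igtp had 436 CPM in SP-Treg replicate 1 and between 491 and 497 CPM in the other SP-Treg libraries, a gap of 0.909 of the range. Even that library was above every BM-Treg library for Igtp.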

How the results depend on the processing

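The median log2 fold change of the 44 ISGs was negative under every alternative run, between -0.31 and -0.19 when a library was left out, and -0.44 with a batch term or in batch 3 alone. The number of ISGs called lower was between 6 and 10 when a library was left out, 5 with a batch term, and 4 and 3 on log2(FPKM + 1) and log2(FPKM + 0.1); that of IRGs and GBPs, a count added after the data had been seen, was between 5 and 9, then 3, 4 and 3. The number called higher was between 0 and 3 when a library was left out, 0 with a batch term and 4 with DESeq2, which added Ifit1 and Irf7. The 10 genes called in the pathway and further lists became between 6 and 10 when a library was left out, 2 with a batch term, and 7 and 5 on the FPKM scales. The cause of these losses was not tested. The fit with a batch term has 1 BM-Treg library in the batch of the SP-Treg libraries. DESeq2's size factors, DESeq2's test, limma-voom and both other filters kept the same 11 ISGs lower. Genes with a transcript whose shares did not overlap numbered 6 on the FPKM scale against 3, and ISGs with a GAS match 12 with the core against 4.

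Ifngr2, which was not called under any setting, changed sign: it had 0.0042 without a filter beyond 1 count, 0.0125 with at least 10 counts in every library, 0.0306 with limma-voom, 0.13 and 0.15 on the FPKM scales, and between -0.16 and 0.13 when a library was left out.

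Replicate numbers did not pair the samples: deviations of same-numbered libraries correlated at -0.106, 0.0595, -0.176 and 0.0398. With the replicate number as a block, 11 ISGs were lower and 2 higher (Ddx58 lost, Ifit1 gained), the median was -0.26 and Ifngr2 had 0.0184.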
